A study of Canis lupus familiaris with 16 samples.

Results

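The genes described here make, carry or bind hyaluronan and chondroitin sulfate, the long sugar chains of the extracellular matrix. They are the hyaluronan synthases *HAS1*, *HAS2* and *HAS3*, the hyaluronan receptor *CD44*, the core proteins *VCAN* (versican) and *ACAN* (aggrecan), and the chain-building enzymes *CHSY1*, *CHSY3*, *CHPF* and *CHPF2*. They were chosen by name, *CHPF2* among them because the study had named it from these tumors, and are 10 of the 41818 genes counted. RNA was sequenced from formalin-fixed, paraffin-embedded sections of 16 soft tissue sarcomas of pet dogs, with no normal tissue among the groups. By molecular identity, 4 tumors were fibrosarcomas (FS, from dogs aged 9 to 13 years), 6 were peripheral nerve sheath tumors (PNST, 8 to 13 years) and 6 were perivascular wall tumors (PWT, 2 to 14 years). The study set the molecular identity from gene expression after a first diagnosis by histology, so the groups are not independent of the expression data. It differed from histology for S1-10, a PWT by histology placed among the PNST, and for S2-08, an FS by histology placed among the PWT.

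Hyaluronan is an unsulfated chain that is extruded through the plasma membrane by the HAS enzymes and is held at the cell surface by CD44. Chondroitin sulfate is built in the Golgi apparatus on core proteins such as versican and aggrecan, which bind hyaluronan and give a loose, water-rich matrix, the myxoid matrix of pathologists. The chain is lengthened by enzyme pairs, in which CHSY1 or CHSY3 carries most of the transferase activity and CHPF or CHPF2 acts as the partner.

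Levels are given in CPM, a gene's counts relative to the tumor's total after scaling by the trimmed mean of M values (TMM), which sets most genes equal between tumors. Totals on genes ranged from 507728 to 2781899 counts in FS, from 1545839 to 4311876 in PNST and from 726025 to 2234165 in PWT, and 22.9% to 30.6% of the reads listed fell on genes. Of 9 tumors with the title prefix S1, 3 were FS, 5 were PNST and 1 was a PWT, while the 7 with the prefix S2 held 1 FS, 1 PNST and 5 PWT. Prefix and tumor type thus overlapped, and whether the prefix marks the sequencing groups was not given in the sources used here. S1-04 and S1-05 carry identical labels and may come from 1 dog. Their counts differed far more (chi-square per degree of freedom 12.0) than runs of 1 tumor did (1.08 to 2.25), so they were not repeat runs. This cannot tell whether they came from 1 dog, since 2 samples of 1 dog could also differ more than runs. Both were kept, with the 2 as 1 sample as an alternative. The labelled cell types were checked against marker genes. *SOX10*, the defining factor of Schwann cells, lay at 2.34 to 4.83 CPM in PNST and 1.09 to 3.27 CPM in PWT and reached 7.53 CPM in an FS. *S100B*, another Schwann cell marker, lay at 1.45 to 76.3 CPM in PNST, 0 to 9.98 CPM in FS and 1.62 to 8.36 CPM in PWT (PNST against both others 2.28, adjusted p = 0.205, edgeR's quasi-likelihood test). All 7 Schwann cell markers together summed to 22.8 to 91.7 CPM in PNST, 16.6 to 85 CPM in FS and 13.1 to 42.8 CPM in PWT. Among them, *NGFR* reached 61.4 CPM in FS and at most 2.83 CPM in PNST, and *ERBB3* had means of 22.6 CPM in FS and 22.4 CPM in PNST. The summed level of 8 pericyte and smooth muscle markers was 395 to 727 CPM in PWT, within the range of FS (542 to 1680 CPM) and PNST (350 to 833 CPM) together. Its median was lowest in PWT (462 CPM, against 653 in PNST and 987 in FS). Of the 8 markers, 7 had a log2 fold change below 0 in PWT, so as a set they did not mark the PWT. *RGS5* had its highest mean in PWT (128 CPM, against 102 in PNST and 87.3 in FS), with ranges that overlapped. In RNA from whole tumor sections, fewer cells of a type and less RNA per cell cannot be told apart.

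Each type was compared with both others pooled by edgeR's quasi-likelihood test, and a gene was called when its Benjamini-Hochberg adjusted p over 15408 genes was under 0.05 and its log2 fold change was above 1 in size. Genes were tested where 4 or more tumors held 10 or more counts, and 8 of the 10 members passed. *HAS1* and *ACAN* did not pass this filter, and *CHSY3* passed it with exactly 4 tumors, 3 of which were FS. In FS, 1 of the 8 was called, *CHSY3*, which was higher, while 9.46% of all genes tested were called. In PWT, 1 of the 8 was called, *CHPF2*, which was lower, against 2.12% of all genes. In PNST, 0 of the 8 were called, as was 0% of all genes, although 2415 genes, *CHPF* and *CHSY1* among them, had an unadjusted p under 0.05 and DESeq2 called 275 genes, 0 of them members. Between pairs of types, 1 member was called for FS against PNST (*CHSY3*, background 7.13%), 2 for FS against PWT (*CHPF2* and *CHSY3*, background 11.2%) and 1 for PNST against PWT (*CHPF2*, background 0.169%). With 8 members tested, 1 call in FS is near what its background share gives, and each of the other counts rests on 1 or 2 genes.

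**Figure D1:**
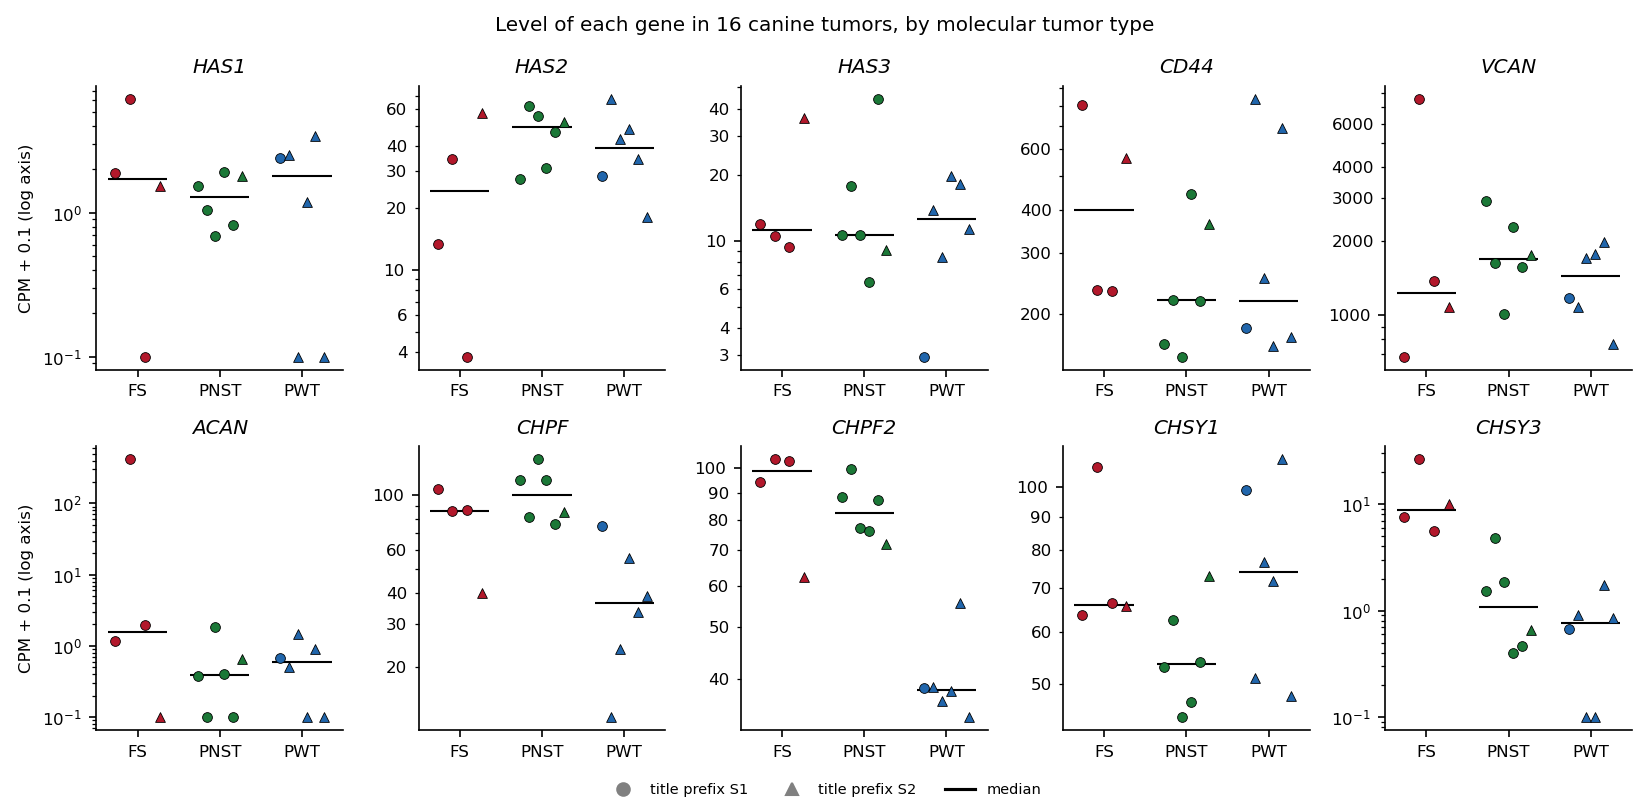
Each panel plots the level of 1 gene (CPM + 0.1, log axis) in 4 FS, 6 PNST and 6 PWT, with 1 point per tumor, circles for the prefix S1, triangles for S2 and a line at the median. *CHPF2* in PWT (33.7 to 55.6 CPM) and *CHSY3* in FS (5.52 to 26.3 CPM) do not overlap the other types, although the lowest FS for *CHSY3* lies close to the highest PNST (4.71 CPM), and single tumors set the highest *VCAN* and *ACAN* values.

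**Figure D2:**
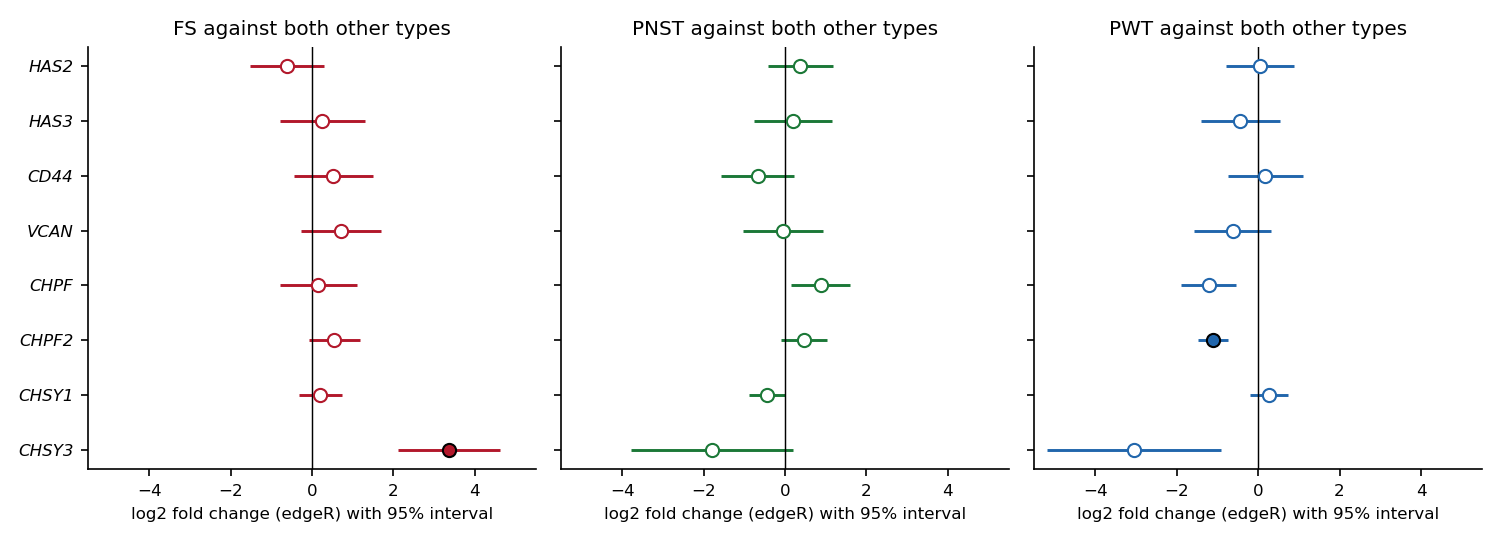
The log2 fold change of each type against both others (x axis, edgeR) is shown with its 95% interval for the 8 members tested, and filled points were called. The filled points are *CHSY3* in FS at 3.37 and *CHPF2* in PWT at -1.11.

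*HAS2*, the synthase that makes most hyaluronan in mesenchymal cells, was detected in every tumor and did not separate the types. In FS it lay at 13.3 CPM in S1-02, 34.5 in S1-11, 3.68 in S1-12 and 57.5 in S2-06. The PNST ranged from 27.6 to 62.5 CPM (median 49.4) and the PWT from 18.0 to 67.4 CPM (median 38.8). The types overlapped, and the 2 lowest of all tumors were the FS S1-12, where the level rests on 2 counts, and S1-02. In FS the log2 fold change was -0.60 (SE 0.44, adjusted p = 0.419, edgeR's quasi-likelihood test), with a 95% interval from -1.52 to 0.31.

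*HAS3*, which makes shorter hyaluronan chains, was likewise not called in any comparison. It lay at 9.21 to 11.8 CPM in 3 FS and at 36.1 CPM in S2-06, at 6.34 to 44.2 CPM in PNST (median 10.5) and at 2.85 to 19.7 CPM in PWT (median 12.5). The highest tumor, S1-10, was the one placed among the PNST against its histology, and without it the other PNST reached 17.6 CPM. The lowest, the PWT S1-07, had 5 counts. The ratio of *HAS2* to *HAS3* counts, which needs no scaling between tumors, ran from 0.40 in S1-12 to 10.0 in S1-07, and the 3 types overlapped in it.

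*HAS1*, the synthase with the weakest activity, was close to absent, with 55 counts in all 16 tumors. The highest level was 6.03 CPM in the FS S1-11 (11 counts, 95% Poisson interval 3.01 to 10.8 CPM), and the next was 3.27 CPM in the PWT S2-09 (4 counts). No count was seen in S1-12, S2-04 and S2-11, and with 3 counts taken as the limit that a count of 0 allows, this permits levels of up to 5.52, 4.18 and 2.24 CPM. These intervals and limits cover counting error only. A difference between types in *HAS1* was thus not detectable at this depth.

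*CD44* varied widely within each type. In FS it was 802 CPM in S1-02, 234 in S1-11, 232 in S1-12 and 565 in S2-06. The PNST lay between 150 and 444 CPM (median 219), and the PWT between 161 and 838 CPM (median 218). The types overlapped, and the highest values came from the PWT S2-03 (838 CPM) and S2-09 (690 CPM) and the FS S1-02. No comparison was called, and the lowest adjusted p for *CD44* was 0.361 (edgeR's quasi-likelihood test), for FS against PNST, at a log2 fold change of 0.82 (SE 0.52).

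*CD44* is also made by leukocytes and keratinocytes, and their markers were high in S1-02 and S2-03 but not in the other tumors with much *CD44*. The summed level of 6 lymphocyte markers was 109 CPM in S1-02 and 122 CPM in S2-03, against 7.37 to 55.0 CPM in the other tumors. The 6 macrophage markers summed to 909 and 737 CPM in these 2 tumors, the highest of all tumors. In S2-09 the lymphocyte and macrophage sums were 30.2 and 456 CPM, and in S2-06 they were 32.3 and 264 CPM. The 6 keratinocyte markers summed to 888 CPM in S1-02 and 676 CPM in S2-03 and to 11.4 and 10.5 CPM in S2-09 and S2-06. They were also high in S1-04, S1-05 and S1-12 (606, 873 and 490 CPM), where *CD44* was 150 to 232 CPM. The part of these cells in the *CD44* values was not tested.

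*VCAN*, the large chondroitin sulfate proteoglycan of soft connective tissue, was abundant in every tumor. The FS values were 679 CPM in S1-02, 7570 in S1-11, 1380 in S1-12 and 1080 in S2-06. The PNST lay between 1010 and 2920 CPM (median 1700) and the PWT between 764 and 1990 CPM (median 1450). S1-11 was 2.59 times the next tumor, the PNST S1-03, while the other 3 FS lay within the range of PWT or below it. FS differed from the other types by a log2 fold change of 0.71 (SE 0.47, adjusted p = 0.368, edgeR's quasi-likelihood test). Without S1-11 it was -0.65 (adjusted p = 0.350), so this 1 tumor set the sign of an uncalled difference, and the same held for FS against PNST (0.53 with it, -0.84 without) and FS against PWT (0.92 with it, -0.44 without).

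*ACAN*, the proteoglycan that gives cartilage its stiffness, was found in 1 tumor. S1-11 held 762 counts (418 CPM, 95% Poisson interval 389 to 449 CPM). The other 15 tumors held 14 counts between them and at most 3 in any one, and the next highest level was 1.84 CPM in the FS S1-12, from 1 count. As the value of a single tumor it is no property of the FS, and *ACAN* did not pass the count filter. Without the filter it was called in FS only while S1-11 was among the tumors.

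Markers of cartilage were also high in S1-11. The summed level of 7 cartilage markers was 177 CPM there, against 6.73 to 31.3 CPM in the other tumors. *COL2A1*, the main collagen of cartilage, lay at 104 CPM (189 counts), and the next tumor at 3.23 CPM. *SOX9*, the factor that drives cartilage genes, lay at 17.0 CPM against at most 4.67 CPM, and *COL9A2* at 26.9 CPM against at most 7.98 CPM. *COL9A1* and *MATN1*, 2 other markers of the list, were at 0 in all 4 FS. S1-11 also had the highest *COL1A1*, 41300 CPM against at most 12900 CPM, and 830 CPM of 6 skeletal muscle markers, against at most 428 CPM (the PWT S1-07). Of all genes tested, 8.29% had their highest level in S1-11, as did 3 of the 8 members tested (*VCAN*, *CHPF2* and *CHSY3*). The part of cartilage, bone or muscle tissue in these values was not tested.

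**Figure D3:**
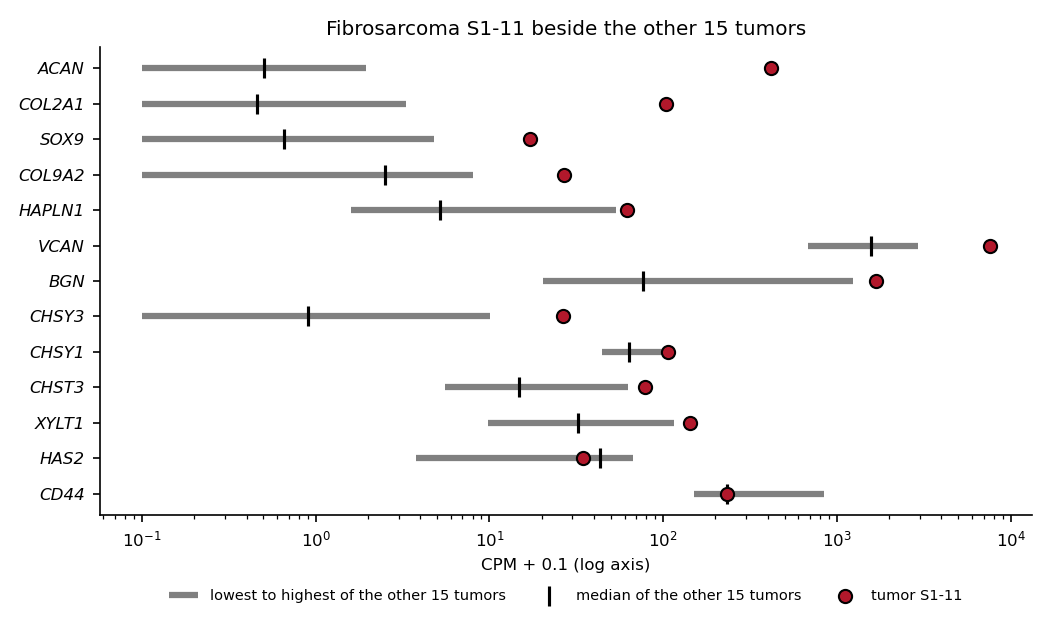
The red points give the level (CPM + 0.1, log axis) of 13 genes of cartilage, hyaluronan and chondroitin sulfate in the FS S1-11, and the grey bars run from the lowest to the highest of the other 15 tumors with a tick at their median. *ACAN* (418 CPM), *COL2A1* (104 CPM) and *VCAN* (7570 CPM) lie beyond the bars, while *HAS2* and *CD44* lie inside them.

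*CHSY1*, the main chondroitin synthase, was not called in any comparison. It was 63.5, 107, 66.3 and 65.6 CPM in the FS S1-02, S1-11, S1-12 and S2-06. The PNST lay between 44.4 and 72.9 CPM (median 53.4) and the PWT between 47.9 and 110 CPM (median 74.1). The 3 types overlapped, and the PNST were lower without passing the test, at a log2 fold change of -0.45 (SE 0.21, adjusted p = 0.314, edgeR's quasi-likelihood test). Between FS and PWT the fitted difference was close to 0, with a 95% interval of the log2 fold change from -0.56 to 0.56.

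*CHSY3*, the second chondroitin synthase, was a rarely read gene that was higher in FS. The FS held 21 counts in S1-02 (7.53 CPM), 48 in S1-11 (26.3 CPM), 3 in S1-12 (5.52 CPM) and 21 in S2-06 (9.98 CPM). The PNST ranged from 0.30 to 4.71 CPM (median 0.99), with 15 counts in S1-04 and at most 5 in the others. The PWT ranged from 0 to 1.64 CPM (median 0.66), with at most 2 counts, and 0 counts in S2-04 and S2-08 allow levels of up to 4.18 and 1.64 CPM. The levels of all 4 FS lay above those of the other 12 tumors, and 3.2% of the genes tested separated the FS from them in either direction. The interval of S1-12 (1.14 to 16.1 CPM), however, reached well into the range of the PNST. *CHSY3* passed the count filter with 4 tumors, 3 of them FS, so this share does not measure how rare its separation is.

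In FS *CHSY3* was higher by a log2 fold change of 3.37 (SE 0.60, adjusted p = 0.00175, edgeR's quasi-likelihood test), with a 95% interval from 2.12 to 4.63. Against PNST alone it was 2.98 (SE 0.69, adjusted p = 0.0144). Against PWT alone it was 4.17 (SE 0.80, adjusted p = 0.00354), a fitted value that is no bound, since 2 PWT had no counts. *CHSY3* no longer passed the filter without S1-02, S1-11, S2-06 or the PNST S1-04. In fits without the filter, the call in FS held without each of these and without S1-12, and it was 2.64 (adjusted p = 0.0369) without S1-11, while against PNST the value without S1-11 was 2.20 (adjusted p = 0.141) and the call was lost. With the tumors grouped by histology, the FS call held (2.94, adjusted p = 0.0394), and those against PNST (adjusted p = 0.248) and PWT (adjusted p = 0.0728) did not.

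The partner *CHPF* did not pass the test in any comparison, and its 4 lowest levels were in PWT. The FS values were 105, 85.5, 86.6 and 39.9 CPM in S1-02, S1-11, S1-12 and S2-06. The PNST lay between 75.7 and 139 CPM (median 99.8). The PWT lay between 12.5 and 74.6 CPM (median 36.2), with S1-07 highest. All PNST were above all PWT, with S1-10 and S1-07 close together, and the FS S2-06 lay inside the range of the PWT. Of the genes tested, 2.7% separated PNST from PWT in either direction.

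The log2 fold change of *CHPF* in PWT was -1.22 (SE 0.33, adjusted p = 0.0509, edgeR's quasi-likelihood test), just short of a call. It was called in 9 of 32 alternatives, among them DESeq2's Wald test (adjusted p = 0.00627) and the fit without S1-07 (-1.48, adjusted p = 0.0314). FS exceeded PWT by 0.99 (adjusted p = 0.0949) and PNST exceeded PWT by 1.35 (adjusted p = 0.0707), neither of them called. With the title prefix as a term, the value in PWT fell in size to -0.73 (adjusted p = 0.450). Within the prefix S1, the 1 PWT lay at 74.6 CPM and the lowest of 8 other tumors at 75.7 CPM. Within S2, the 5 PWT lay at 12.5 to 55.2 CPM, beside 39.9 CPM in the FS and 85.2 CPM in the PNST.

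*CHPF2*, the other partner and a gene that the study itself named from these tumors, was lower in PWT. The FS values were 94.3 CPM in S1-02, 104 in S1-11, 103 in S1-12 and 62.2 in S2-06. The PNST lay between 71.7 and 99.6 CPM (median 82.0). The PWT lay between 33.7 and 55.6 CPM (median 37.9). All 6 PWT were below all 10 other tumors, and 0.746% of the genes tested separated the PWT from them in either direction. Of the PWT, 5 lay within 33.7 to 38.4 CPM, with S2-09 apart at 55.6 CPM. The spread of *CHPF2* between tumors of the same type was small, with a biological coefficient of variation of 24.3% against a median of 40.3% over the genes tested.

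The log2 fold change of *CHPF2* in PWT was -1.11 (SE 0.17, adjusted p = 0.0120, edgeR's quasi-likelihood test), or 0.464 times the level of the other types, with a 95% interval from -1.47 to -0.75. FS exceeded PWT by 1.18 (SE 0.21, adjusted p = 0.00228). PNST exceeded PWT by 1.06 (SE 0.19, adjusted p = 0.0494), a call lost in 15 of 31 alternatives, including 9 of the 16 in which 1 tumor was left out. For FS against PNST *CHPF2* was not called (0.12, adjusted p = 0.780), with an interval from -0.31 to 0.55 on the log2 scale. Because the study had picked out *CHPF2* in the same tumors, the call is not independent evidence of its direction.

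The call in PWT was kept in all 16 fits without 1 tumor (-1.23 to -1.06, highest adjusted p = 0.0488) and without both reassigned tumors (-1.09, adjusted p = 0.0336). It was lost with the title prefix as a term (-0.92, adjusted p = 0.237) and with the tumors grouped by histology (-0.75, adjusted p = 0.233), in which S1-10 at 87.0 CPM counts as a PWT and S2-08 at 37.7 CPM as an FS. Within each prefix the PWT lay below the other tumors, while the means of FS and PNST changed order between prefixes. The only S2 tumor was the lowest for *CHPF2* both among the FS (S2-06) and among the PNST (S2-07). Few tumors thus separate type from prefix. In S1, the 1 PWT lay at 38.2 CPM and the 8 others at 76.0 CPM or more, and in S2 the 5 PWT lay at 33.7 to 55.6 CPM, below the FS at 62.2 CPM and the PNST at 71.7 CPM.

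Collagen genes among the fibroblast markers were also lowest on average in PWT. The summed level of 7 fibroblast markers, all detected in every tumor and mostly made up of *COL1A1*, *COL1A2* and *COL3A1*, was 17500 to 98100 CPM in FS, 13200 to 34700 CPM in PNST and 6510 to 18400 CPM in PWT, with S2-09 again the highest PWT. Of the 7 markers, *COL1A1* was called lower in PWT (-2.03, adjusted p = 0.0458, edgeR's quasi-likelihood test), and *COL1A1*, *COL3A1* and *LUM* were called higher in FS. Other markers of the list ran differently. *FAP* had its highest mean in PWT (443 CPM, against 356 in PNST and 186 in FS), and *PDGFRA* its lowest in FS (283 CPM, against 644 in PNST and 406 in PWT) and was called lower in FS than in PNST (-1.18, adjusted p = 0.0498). The genes whose levels ran most like *CHPF2* over the 16 tumors were *COL1A1* (Spearman's rho 0.932), *CACNA1D* (0.926) and *CHRNA7* (0.924), given as a description of tumors that share their type and prefix. For *CHSY3* they were *SEC16B* (0.939), *LBH* (0.909) and *MCUB* (0.902). The part of fibroblast content in the *CHPF2* values was not tested.

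The balance of synthase and partner was also read within each tumor, as the ratio of *CHSY1* to *CHPF2* counts, which is independent of the scaling between tumors. Gene lengths were not used, so the ratio compares tumors and not the 2 genes. It was 1.33 to 2.58 in PWT (median 1.94), 0.58 to 1.02 in PNST (median 0.62) and 0.64 to 1.05 in FS (median 0.85). All 6 PWT lay above the other 10 tumors. The 5 PNST with the prefix S1 lay within 0.58 to 0.63, and the PNST S2-07 at 1.02, and among the FS the S2 tumor was again the highest. Within S1 the PWT had a ratio of 2.58 against at most 1.03 elsewhere, and within S2 the PWT had 1.33 to 2.12 against 1.02 and 1.05. The ratio was formed after the values of both genes were seen and was given no test. It has *CHPF2* as its denominator, so it is not separate evidence from the lower *CHPF2* in PWT. The ratio of *CHPF2* to *CHPF* counts overlapped between the types, at 0.51 to 3.06 in PWT, 0.56 to 1.22 in PNST and 0.90 to 1.56 in FS.

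**Figure D4:**
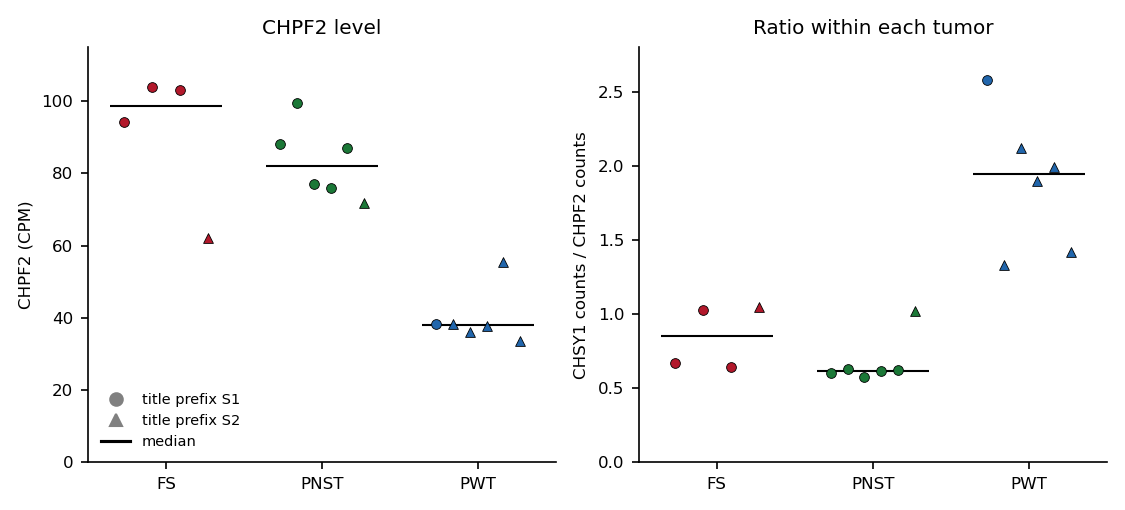
The left panel plots the *CHPF2* level (CPM) and the right panel the ratio of *CHSY1* to *CHPF2* counts in each of 16 tumors, by type, with circles for the prefix S1, triangles for S2 and lines at the medians. In both panels the 6 PWT, with medians of 37.9 CPM and 1.94, do not overlap the FS and PNST.

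The other genes of the pathway were taken as 7 lists of 72 genes, of which 59 passed the count filter. In FS, 6 of the 59 were called higher and 4 lower, in PWT 1 was called lower, and in PNST 0 were called (10 at an unadjusted p under 0.05), beside 9.46%, 2.12% and 0% of all genes in FS, PWT and PNST. The median log2 fold change of the 59 was 0.34 in FS, -0.11 in PNST and -0.23 in PWT, beside 0.00, -0.06 and -0.08 over all genes tested. The lists were chosen with earlier results of these data known, so these shares and medians are a description and no test of the pathway. The called genes fell in 5 of the lists, and 0 of 9 genes that supply sugar nucleotides and 0 of 7 that degrade chondroitin sulfate in lysosomes were called in any of the 3 comparisons. In PWT all 7 of the lysosomal genes had a log2 fold change below 0 (-0.93 to -0.02), and 0 of them passed the test.

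Among the proteins that bind hyaluronan, 3 of 10 tested were called higher and 2 lower in FS. *HAPLN1*, which links aggrecan or versican to hyaluronan, lay at 3.23, 62.0, 53.4 and 5.70 CPM in the FS S1-02, S1-11, S1-12 and S2-06 and at no more than 12.5 CPM in the other types (log2 fold change 2.40, adjusted p = 0.00968, edgeR's quasi-likelihood test). The rise was carried by S1-11 and S1-12, and without S1-11 the value was 1.72 (adjusted p = 0.121). *HAPLN3*, of the same family, was higher by 2.12 (adjusted p = 0.0210), a call lost in 4 of 26 alternatives, among them histology groups (1.80, adjusted p = 0.138) and the fit without S1-10 and S2-08 (1.98, adjusted p = 0.0529). It lay at 14.0, 18.6, 9.21 and 2.38 CPM in the FS S1-02, S1-11, S1-12 and S2-06 and at no more than 4.91 CPM in the other types. S1-12 and S2-06 held 5 counts each. Only S1-02, S1-11 and the PNST S1-03 and S1-09 held 10 or more counts, so *HAPLN3* barely passed the filter. *LAYN*, the receptor layilin, was higher by 3.41 (adjusted p = 0.000878). Its levels in FS, 9.98 to 164 CPM, did not overlap those of the other types, 1.17 to 7.36 CPM, a pattern of 3.2% of the genes tested. The level in S1-12 (11 CPM) rests on 6 counts. S1-02 alone held 164 CPM, and without it the value was 1.36 (adjusted p = 0.0590).

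The 2 genes called lower handle the transfer of heavy chains to hyaluronan, a step that makes it cohesive. *ITIH5*, a heavy chain, lay at 38.7, 105, 58.9 and 89.3 CPM in FS and at 106 to 1060 CPM in the other types, with no overlap, a pattern of 3.2% of the genes tested (-3.05, SE 0.49, adjusted p = 0.000930, edgeR's quasi-likelihood test). Grouped by histology the call was lost (-1.86, adjusted p = 0.114). The nearest tumor above the FS was the PWT S2-03 at 106 CPM. Because the study had listed *ITIH5* as lower in FS in the same tumors, neither its call nor its separation is independent evidence. *TNFAIP6*, the enzyme that transfers the chains, was lower by 2.14 on the log2 scale (adjusted p = 0.0281), at 0 to 41.3 CPM in FS and 24.4 to 138 CPM elsewhere, and the call was lost without S1-02, S1-11 or S1-12. Of 5 tested genes of hyaluronan breakdown, *HYAL1*, a lysosomal hyaluronidase, fell in FS (-2.01, adjusted p = 0.00866), at 3.84 to 15.4 CPM against 14.5 to 70.7 CPM, but not with histology groups (-1.17, adjusted p = 0.248).

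Among the other steps of chondroitin sulfate synthesis, *XYLT1*, which attaches the first sugar to the core protein, was higher in FS (1.56, adjusted p = 0.0248, edgeR's quasi-likelihood test) and lower in PWT (-1.73, adjusted p = 0.0409). These comparisons share tumors, and the PWT call was lost in 18 of 32 alternatives. The FS call was lost in 7 of 32, among them the fits without S1-11 (1.31, adjusted p = 0.115), without S1-12 (adjusted p = 0.0601) and with histology groups (adjusted p = 0.198). The levels of *XYLT1* were 94.7, 143, 116 and 40.9 CPM in FS, 19.3 to 76.6 CPM in PNST and 9.72 to 32.1 CPM in PWT. *CHST3*, which sulfates the chain at carbon 6 of its amino sugar, rose in FS by 1.76 (adjusted p = 0.00871), at 40.9 to 79.0 CPM against 5.47 to 44.6 CPM, a call lost with histology groups (1.38, adjusted p = 0.134). *PAPSS2*, which makes the sulfate donor, fell by 2.33 on the log2 scale (adjusted p = 0.0431), a call lost in 18 of 32 alternatives.

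Of 5 other core proteins tested, *BGN* (biglycan, a small proteoglycan of bone and connective tissue) was called in FS, at 3.17 (SE 0.57, adjusted p = 0.00178, edgeR's quasi-likelihood test). It lay at 169, 1670, 1230 and 101 CPM in S1-02, S1-11, S1-12 and S2-06 and at 20.2 to 253 CPM in the other types. S1-11 and S1-12 were far above all other tumors and the other 2 FS lay inside the range of PNST, and the call was kept in all 32 alternatives, with 2.51 (adjusted p = 0.0173) without S1-11.

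**Figure D5:**
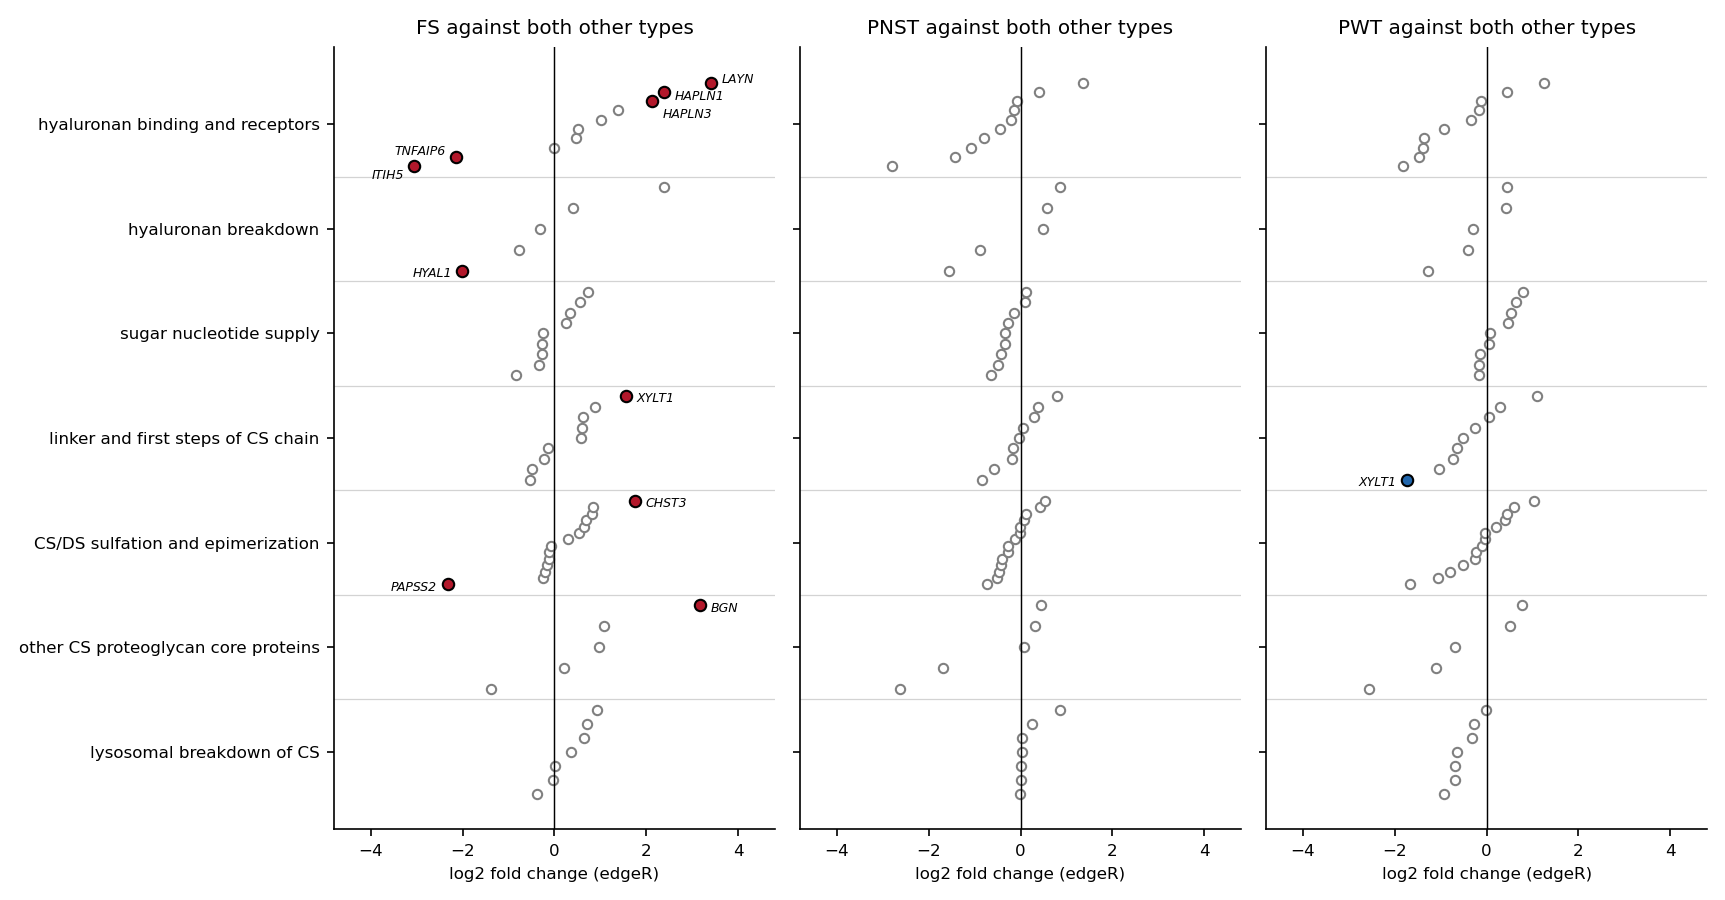
The log2 fold change (x axis, edgeR) of each of 59 other pathway genes is plotted by list for FS, PNST and PWT against both other types, with 1 point per gene, and filled, named points were called. CS and DS stand for chondroitin and dermatan sulfate. All but 1 of the filled points are in the FS panel, from *ITIH5* at -3.05 to *LAYN* at 3.41, and the other is *XYLT1* in PWT at -1.73.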

How the data were processed

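RNA extracted from tumor sections was sequenced on an Ion Proton instrument. The authors aligned the reads to the canine genome ROS-canfam-01 with STAR2, counted them per gene with htseq-count and deposited the raw counts, without normalization. Whether counting used strand was not given in the sources used here, so reads of genes that overlap on opposite strands cannot be told apart. Of 34 columns, each belongs to 1 tumor (0 were unmapped). Runs of 1 tumor were summed (3 for each S1 tumor, 1 for each S2 tumor). Rows without a gene were left out, so 22.9% to 30.6% of the reads listed were used.

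Groups follow the molecular identity of the labels. The 15408 genes for which 4 or more tumors held 10 or more counts were tested with edgeR 4.0.16 in R 4.3.3 (TMM, quasi-likelihood F-test, Benjamini-Hochberg adjustment over all genes tested). A type was compared with both others pooled in a 2-group model, and pairs of types as contrasts of a 3-group model. DESeq2 1.42.0 was an alternative. Standard errors are the log2 fold change divided by the root of F. The tests were checked on simulated counts. The labels do not state that each tumor came from a separate dog, so p-values measure only the spread between these tumors. With 4 to 6 tumors per group, depth and tumor number limit what can be detected. The members and all lists were chosen with earlier results of these data known. All 10 members were named, with each other pathway gene called for 1 type against both others, and the 3 genes most alike in Spearman correlation (log2 CPM, prior count 2) for each member called. Alternatives were other scalings, filters and models, the title prefix as a term, grouping by histology, thinned counts and leaving out tumors. No sequence or gene length was used.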

Additional observations from a re-analysis of the deposited data

Results flagged for a closer look

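Within each type, the highest and the lowest tumor were compared with their nearest neighbor by Dixon's ratio for each of the 10 genes, and 7 of 27 sets of tumors held a tumor that stood apart. A rate of about 1 in 20 by chance holds for normally spread values, which levels in CPM need not be. The tumor flagged was the highest of its set each time, so the flags are a description only. The FS S1-11 stood apart in 3 of them, with *VCAN* at 7570 CPM (next FS 1380 CPM), *ACAN* at 418 CPM (next 1.84 CPM) and *CHSY1* at 107 CPM (next 66.3 CPM). *HAS3* stood apart in the FS S2-06 at 36.1 CPM (next 11.8 CPM) and in the PNST S1-10 at 44.2 CPM (next 17.6 CPM). *CHPF2* in the PWT S2-09 was 55.6 CPM (next 38.4 CPM), and *CHSY3* in the PNST S1-04 was 4.71 CPM (next 1.75 CPM).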

How the results depend on the processing

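Results were recomputed under 27 alternatives and 6 more chosen after seeing the data. No called value of a member changed sign, while 18 of the 48 member values, 0 of them called, changed sign in at least 1 alternative. The number of members called was 1 for FS, and it was 2 without the count filter, 0 after thinning all tumors to the lowest total and 0 to 2 when 1 tumor was left out. For PNST it was 0 throughout. For PWT it was 1, and it became 2 with relative log expression scaling, with edgeR's own expression filter or after thinning, 3 with DESeq2 or with the 3-group model, and 0 with the prefix as a term or the histology groups (1 to 2 with 1 tumor left out). For FS against PNST it was 1, and it became 2 without the filter and 0 with histology, after thinning or among S1 tumors only (0 to 2 with 1 left out). For FS against PWT it was 2, and it became 1 with the prefix and 0 with histology (1 to 3 with 1 left out). For PNST against PWT it was 1, and it became 2 with DESeq2 and 0 with the prefix, histology, without S1-10 and S2-08 or with S1-04 and S1-05 as 1 sample (0 to 2 with 1 left out). The ranges with 1 tumor left out include fits that also dropped the count filter. With the filter kept, they were 0 to 1 for FS, for FS against PNST and for PNST against PWT. Thinning took *CHSY3* below the filter, so that for FS against PWT the 2 called were *CHPF* and *CHPF2*, and for PNST against PWT the 1 called was *CHPF*. Over all genes, the 1457 calls in FS became 205 with histology, 845 after thinning and 911 without S1-11. The 327 calls in PWT became 0 with the prefix or histology, 128 without the filter, 140 without S1-10 and S2-08, 863 with DESeq2, 859 with the 3-group model and as few as 11 without 1 tumor (S2-11). In PNST, DESeq2 called 275 and the 3-group model 170. The 1099 calls for FS against PNST became 0 with histology, 635 without S1-10 and S2-08, 653 after thinning, 656 without S1-10 and 535 among S1 tumors. The 1726 for FS against PWT became 5 with histology, 895 with the prefix, 1118 after thinning and 1062 without S1-11. The 26 for PNST against PWT became 545 with DESeq2, 106 after thinning, 12 with upper quartile scaling (7 higher and 5 lower, against 11 and 15) and 0 to 226 without 1 tumor. With S1-04 and S1-05 as 1 sample, those 26 became 0. The cause of the other changes was not tested. No paired analysis was possible because the labels give no replicate numbers.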

Other observations

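The 59 other pathway genes were also compared between pairs of types. For FS against PWT, 10 were higher and 4 lower in FS, where 11.2% of all genes were called. For FS against PNST, 4 were higher and 2 lower, against 7.13% of all genes. For PNST against PWT, 0 were called by edgeR (13 at an unadjusted p under 0.05), against 0.169% of all genes. The pairs share tumors. Among these calls, 5 genes were not called for any type against both others, and they were named after their values were seen. *B4GALT7*, which adds the second sugar of the linker (log2 fold change 1.16, SE 0.36, adjusted p = 0.0413, edgeR's quasi-likelihood test), and the sulfotransferase *CHST12* (1.13, SE 0.36, adjusted p = 0.0476) were higher in FS than in PWT. So were *DSE*, the epimerase that turns chondroitin into dermatan sulfate (1.13, SE 0.33, adjusted p = 0.0324), and *GUSB*, a lysosomal enzyme that degrades the chain (1.28, SE 0.38, adjusted p = 0.0334). *SRGN*, the core protein serglycin of blood cells, was higher in FS than in PNST (2.79, SE 0.74, adjusted p = 0.0290). The study had listed *SRGN* as lower in PNST in the same tumors, so this call is not independent evidence.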
